A study of Homo sapiens with 8 samples.

Results

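The enzymes that build purine and pyrimidine nucleotides from small precursors were followed through 10 genes: PRPS1, PPAT, GART, PAICS, ATIC, IMPDH2, CAD, DHODH, UMPS and CTPS1. They were taken by symbol from a table of read counts for 78932 Ensembl gene IDs, and each symbol matched 1 ID. All 10 passed the filter on low counts, among 24289 genes tested. The values come from RNA of sucrose gradient fractions of 2 human acute myeloid leukaemia lines, labelled Molm13 and U937, in which ribosome-bound RNA is separated by the number of ribosomes it carries. Cells carried a lentiviral vector for the expression of OGFOD1, called OE, or were labelled control, with Scr in the control library names. All cells received cycloheximide, which holds ribosomes on their RNA, before lysis. A light pool combined free ribonucleoproteins, monosomes and disomes, and a heavy pool combined the fractions from 3 ribosomes upward. Light and heavy pools of control and OE cells made 4 groups with 1 library of each line, so n = 2 per group, and 1 gradient gave both pools of a line and genotype as far as the labels say. Nothing in the labels describes separate cultures, promoters or clones, so the p-values reflect how far these libraries spread, which may be technical.

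Both pathways start from phosphoribosyl pyrophosphate (PRPP), the activated ribose made by PRPP synthetases such as PRPS1. Purines are assembled step by step on that ribose: PPAT makes the committed step, GART, PAICS and ATIC carry several of the later steps, and the product inosine monophosphate is turned toward guanine nucleotides by IMPDH2. Pyrimidines are built as a free ring by CAD and the mitochondrial enzyme DHODH, joined to PRPP and decarboxylated by UMPS, and turned into cytidine triphosphate by CTPS1. Dividing leukaemia cells draw on both pathways for RNA and DNA, and IMPDH2 and DHODH are long-standing drug targets.

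PPAT (ENSG00000128059) and PAICS (ENSG00000128050), which act in the same purine pathway, lie head to head on chromosome 4, and the stretch between their starts is shown because it is the start region that these members share. In the RefSeq tables on GRCh38.p14 the PPAT transcript begins at 56435615 on the minus strand and the PAICS transcript at 56435752 on the plus strand. The 136 bases between them, plus strand, 75.0% G or C, hold 3 GC boxes (GGGCGG, searched on both strands), printed in capitals.
PPAT to PAICS interval, chr4:56435616-56435751: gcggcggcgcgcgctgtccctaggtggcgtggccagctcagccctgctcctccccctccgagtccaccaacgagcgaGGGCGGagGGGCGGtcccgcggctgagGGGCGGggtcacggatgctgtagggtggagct
The GC box occurred in the windows of 8 of the 9 members that had one, against 48.3% of all genes with a window. A window ran from 250 bases before to 50 bases after a transcript start.

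The E-box CACGTG, the core sequence bound by MYC and related factors, occurred in the windows of 4 of 9 members, against 8.775% of genes and 7.256% of windows. Those members were the purine genes PPAT, PAICS and ATIC (ENSG00000138363) and the pyrimidine gene DHODH (ENSG00000102967). The matches are shown, each on its gene's strand with the motif in capitals, because they are the sequence feature that part of the group had in common.
PPAT, chr4:56435781-56435808, minus strand, 182 bases before the start: acggagatttcCACGTGcagcaaataca
PAICS, chr4:56435781-56435801, plus strand, 40 bases after the start: tgtatttgctgCACGTGgaaa
ATIC, chr2:215312002-215312029, plus strand, 46 bases before the start: ggccggcgggcCACGTGataagcccgga
ATIC, chr2:215312077-215312104, plus strand, 29 bases after the start: tcctacctgcgCACGTGgtgccgccgct
DHODH, chr16:72008574-72008601, plus strand, 159 bases before the start: ccgctactgcgCACGTGcacccaaccag
PPAT and PAICS shared 1 site, read from opposite strands. The CCAAT box (CCAAT) occurred in windows of CAD, DHODH, GART and PRPS1, against 39.7% of genes, and the cyclic AMP response element (TGACGTCA) in that of UMPS, against 2.25% of genes. These matches are a description of letters in these windows, and binding was not measured.

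Molm13 OE heavy had the fewest counts, 25741930, and Molm13 control light the most, 89373133. The targeted gene went against the genotype label: OGFOD1, an oxygenase that hydroxylates a ribosomal protein, stood at 33.02 to 60.2 CPM (counts relative to the library total, adjusted by edgeR's TMM factors) in the 4 control libraries and at 10.1 to 25.3 CPM in the 4 labelled OE. Its log2 fold change was -1.60 (SE 0.30, adjusted p = 0.0178), so every genotype direction below goes by labels that the targeted gene contradicts. Between libraries labelled U937 and Molm13, edgeR's quasi-likelihood test called 0 of 24289 genes, limma voom 1, limma voom with gradient as a block 54 and DESeq2 305. FLT3 was at 85.3 CPM or more in all 8. Whether the 2 line labels mark different lines was not tested, so every line comparison below goes by the labels. Mitochondrially encoded mRNAs took 1.77% of counts in the Molm13 control light library and 6.77% to 11.6% in the other light libraries, so that library stood apart. The 10 myeloid markers were detected in all 8 libraries, and PPBP, MS4A1, COL3A1 and DCN, markers of other cell types, were at 0 in all 8. The T cell receptor chain gene CD3D reached 119.6 CPM while its partner CD3E stayed at or under 0.0876 CPM. The summed level of the 8 lymphoid markers ran from 3.19 to 36.6 CPM in the control libraries and from 18.1 to 126 CPM in those labelled OE; its part in the results was not tested.

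Over both pools, 3 of the 10 synthesis enzymes were lower in the libraries labelled OE than in control: CAD, CTPS1 and PRPS1. Across all genes 2.36% were called lower, by edgeR's quasi-likelihood test at an adjusted p of 0.05. None of the 10 was called higher (2.01% of all genes). Fold changes were negative in 9 of 10 members (53.3% of all genes), and their log2 median was -0.84 beside -0.05 for all genes tested. In coding genes binned by coding length, the median lay between -0.24 and -0.10. At an unadjusted p under 0.05 by edgeR, 7 members were lower (12.2% of all genes). DESeq2 called these 7 at its adjusted p (6.85% of the genes it tested): CAD, CTPS1, PRPS1, UMPS, DHODH, GART and PAICS. The pools of a gradient were counted as independent in these fits. When the 2 pools of a gradient were added into 1 library, edgeR called 0 members (0% of genes), 7 were lower at an unadjusted p under 0.05 (8.17% of genes), and the smallest adjusted p over all genes was 0.102, that of CAD.

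**Figure D1:**
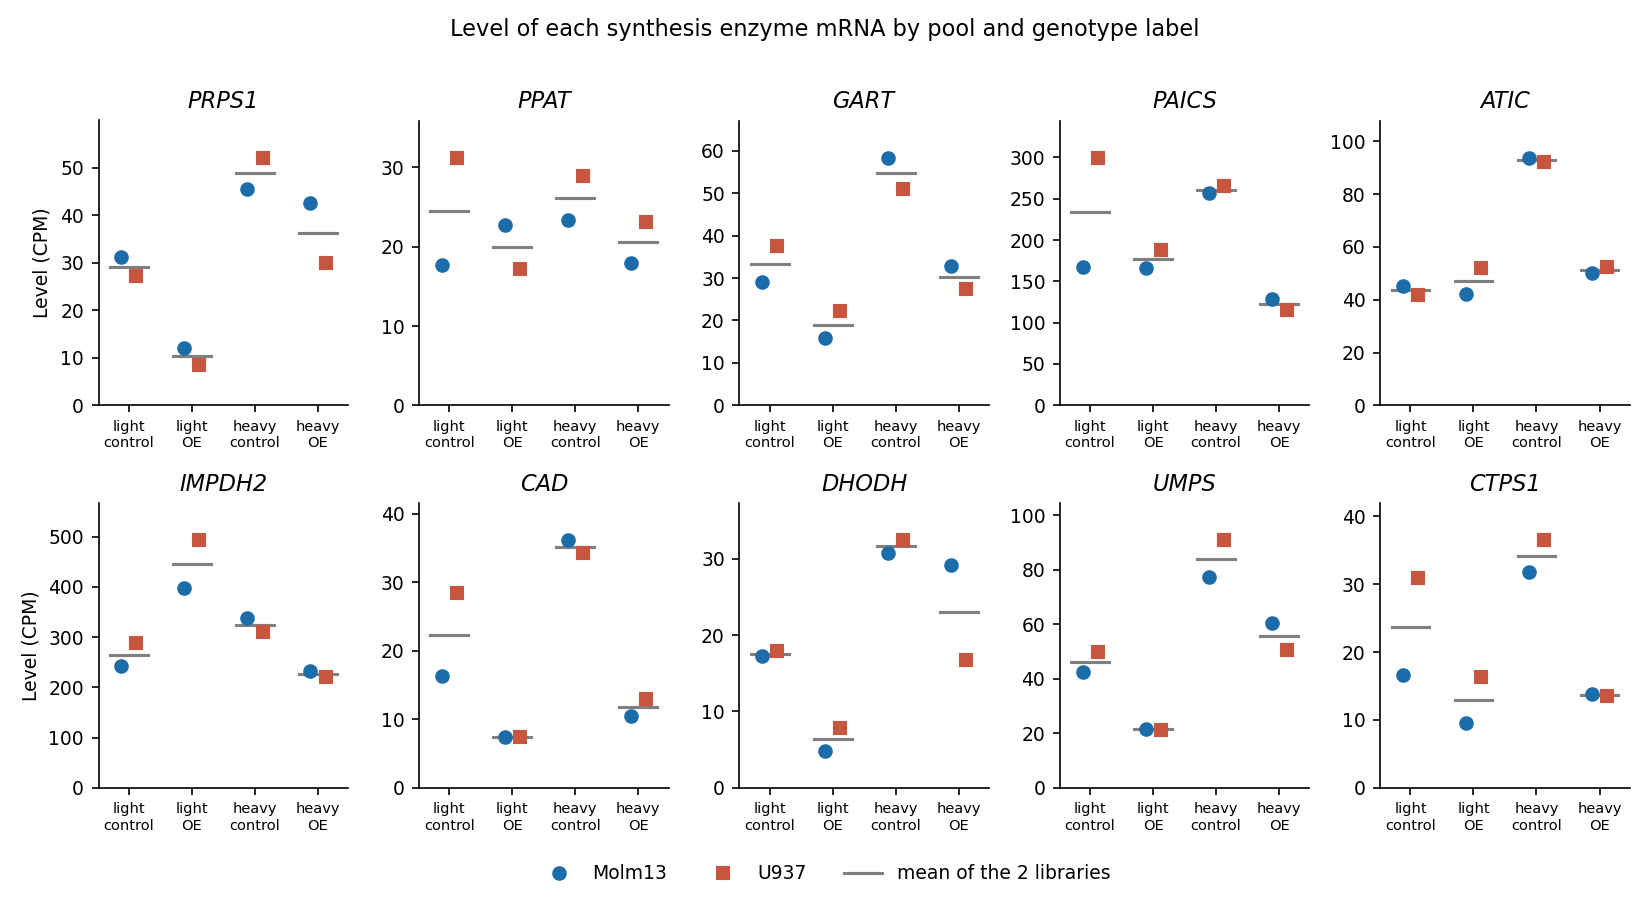
Level of each enzyme mRNA (CPM, TMM scaled, linear axis from 0) in the 4 groups of pool and genotype label; points are single libraries by line label and bars the mean of the 2 libraries. In the heavy pool both OE libraries lie below both control libraries for all 10 genes (24.3% of all genes tested). IMPDH2 in the light pool lies above control, at 397 and 493 CPM against 242 and 287 CPM.

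PRPS1 (ENSG00000147224, chromosome X, 107628424 to 107651026, plus strand, GRCh38), which supplies PRPP to both pathways, fell in the libraries labelled OE. Its light pool level was 31.2 CPM in Molm13 and 27.1 CPM in U937 for control, and 11.98 and 8.55 CPM for OE. Its heavy pool level was 45.5 and 52.1 CPM for control, and 42.5 and 29.9 CPM for OE. The groups did not overlap in either pool, but the 2 Molm13 heavy libraries nearly met. The log2 fold change over both pools came to -0.99 (SE 0.23, adjusted p = 0.0344), -1.52 (SE 0.33) in the light pool and -0.46 (SE 0.32) in the heavy pool. Across 15 alternative settings the adjusted p over both pools ranged from 0.00352 to 0.262, and the call was lost with no line term, with gradients summed, and without Molm13 OE heavy, U937 control heavy, U937 OE light or U937 OE heavy.

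Among the purine ring enzymes PPAT, GART, PAICS and ATIC, none passed the test over both pools. GART (ENSG00000159131, chromosome 21, 33503931 to 33543491, minus strand), a single protein with 3 enzymatic activities, was the most even of the 10 genes across the 4 matched pairs. In the light pool it stood at 28.98 and 37.5 CPM in the control libraries of Molm13 and U937, and at 15.8 and 22.2 CPM in those labelled OE. Its heavy pool values were 58.4 and 51.1 CPM for control, and 32.8 and 27.5 CPM for OE. The differences of log2 CPM in the 4 pairs ran from -0.89 to -0.75, and the fitted value over both pools was -0.83 (SE 0.23, adjusted p = 0.0613).

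PAICS, which joins carbon dioxide and then aspartate to the growing purine ring, separated by genotype label in the heavy pool. There it was at 257 and 265 CPM in the control libraries of Molm13 and U937 and at 129 and 116 CPM in those labelled OE. Light pool control libraries were far apart, at 168 and 300 CPM, and the OE libraries stood at 166 and 188 CPM. The groups of the light pool overlapped, since the Molm13 control library lay below the U937 OE library. On the log2 scale the fitted differences were -1.09 (SE 0.40, adjusted p = 0.22) in the heavy pool and -0.37 (SE 0.39, adjusted p = 0.713) in the light pool, with -0.73 (SE 0.28, adjusted p = 0.143) over both.

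ATIC, which closes the purine ring in the last steps to inosine monophosphate, had nearly the same heavy pool values in both lines. Its heavy pool level was 93.9 CPM in Molm13 and 92.3 CPM in U937 for control, against 50.2 and 52.4 CPM for OE. The light pool gave 45.3 and 41.8 CPM for control and 42.1 and 51.9 CPM for OE, with the groups overlapping. The fitted log2 fold change was -0.86 (SE 0.32, adjusted p = 0.231) in the heavy pool and 0.11 (SE 0.32, adjusted p = 0.917) in the light pool, with -0.38 (SE 0.23, adjusted p = 0.355) over both.

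PPAT, the amidotransferase of the committed purine step, gave opposite directions for the 2 lines in the light pool. The heavy pool values were 23.4 and 28.95 CPM for control in Molm13 and U937, and 18.0 and 23.1 CPM for OE. In the light pool they were 17.7 and 31.2 CPM for control, and 22.8 and 17.2 CPM for OE. The OE minus control difference of log2 CPM there was 0.36 in Molm13 and -0.86 in U937. The log2 fold change over both pools came to -0.29 (SE 0.25, adjusted p = 0.528). PPAT and its neighbour PAICS, which share a start region, thus had log2 fold changes over both pools of -0.29 and -0.73, with 95% limits of -0.83 to 0.24 and of -1.33 to -0.13, and their difference was not tested.

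IMPDH2 (ENSG00000178035, chromosome 3, 49024325 to 49029408, minus strand), which catalyses the rate-limiting step to guanine nucleotides, went opposite ways in the 2 pools. In the light pool it stood at 242 CPM in Molm13 and 287 CPM in U937 for control, and at 397 and 493 CPM for OE. The heavy pool gave 337 and 309 CPM for control, and 233 and 221 CPM for OE. The groups did not overlap in either pool: OE was above control in the light pool and below it in the heavy pool, under both line labels. In the heavy pool 24.3% of all genes lay below control without overlap. The share of all genes with both directions is not given here. Fitted log2 fold changes were 0.75 (SE 0.39, adjusted p = 0.397) in the light pool, -0.51 (SE 0.39, adjusted p = 0.577) in the heavy pool and 0.12 (SE 0.28, adjusted p = 0.844) over both, so none passed the threshold. It was the only one of the 10 with a positive value over both pools.

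CAD (ENSG00000084774, chromosome 2, 27217390 to 27243943, plus strand), the multifunctional protein that catalyses the opening steps of pyrimidine synthesis, had the largest decrease of the 10. The light pool values were 16.4 and 28.4 CPM for control in Molm13 and U937, and 7.45 and 7.38 CPM for OE. In the heavy pool they were 36.2 and 34.2 CPM for control, and 10.4 and 13.0 CPM for OE. Each OE library was below each control library of its pool, and even the highest OE value, 13.0 CPM, was below the lowest control value. As group means, the heavy pool held 35.2 ± 1.36 CPM in control and 11.7 ± 1.82 CPM in OE (SD, n = 2). Across both pools CAD fell by 1.58 in log2 units (SE 0.24, adjusted p = 0.0121), with -1.56 (SE 0.34) in the light and -1.60 (SE 0.34) in the heavy pool. The adjusted p over 15 alternative settings ran from 1.34e-07 to 0.102, and the call was lost without the U937 OE heavy library and with gradients summed.

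DHODH (chromosome 16, 72008588 to 72027664, plus strand) oxidises dihydroorotate at the inner mitochondrial membrane. Light pool levels of it were 17.2 and 17.9 CPM in the control libraries of Molm13 and U937, and 4.87 and 7.86 CPM in those labelled OE. Heavy pool control libraries had 30.8 and 32.4 CPM, and those labelled OE had 29.2 and 16.7 CPM. The heavy pool values of Molm13 thus nearly coincided, and the U937 OE value stood apart below the other heavy libraries. The fold change over both pools was -0.96 on the log2 scale (SE 0.26, adjusted p = 0.0557), with -1.46 (SE 0.38) in the light pool and -0.46 (SE 0.37) in the heavy pool. Without the U937 OE heavy library the heavy pool value was 0.01. The lowest count of any member in any library was that of DHODH in Molm13 OE light, 234 reads, or 5.09 CPM before TMM scaling with exact Poisson 95% limits of 4.46 to 5.79, which cover counting error only.

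UMPS (ENSG00000114491, chromosome 3, 124730366 to 124749273, plus strand) holds the 2 activities that yield uridine monophosphate. Its light pool level was 42.6 CPM in Molm13 and 49.8 CPM in U937 for control, and 21.7 and 21.1 CPM for OE. The heavy pool level was 77.4 and 90.9 CPM for control, and 60.5 and 50.7 CPM for OE. Both pools separated the genotype labels without overlap. The log2 fold change over both pools came to -0.85 (SE 0.23, adjusted p = 0.0539).

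CTPS1 (ENSG00000171793, chromosome 1, 40979335 to 41012565, plus strand), the cytidine triphosphate synthase known for its role in proliferating lymphocytes, fell in the libraries labelled OE. Its heavy pool values were 31.8 and 36.5 CPM for control in Molm13 and U937, and 13.8 and 13.5 CPM for OE. Light pool values were 16.5 and 30.9 CPM for control, and 9.51 and 16.4 CPM for OE. The heavy groups were far apart, while in the light pool the U937 OE library came just below the Molm13 control library. The log2 fold change was -1.09 over both pools (SE 0.24, adjusted p = 0.0305), -1.31 (SE 0.34) in the heavy pool and -0.87 (SE 0.34) in the light pool. Its adjusted p over both pools ranged from 0.000235 to 0.228 across 15 alternative settings. The call was lost with no line term, with gradients summed, and without Molm13 control heavy, Molm13 OE light, Molm13 OE heavy, U937 control heavy or U937 OE heavy.

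**Figure D2:**
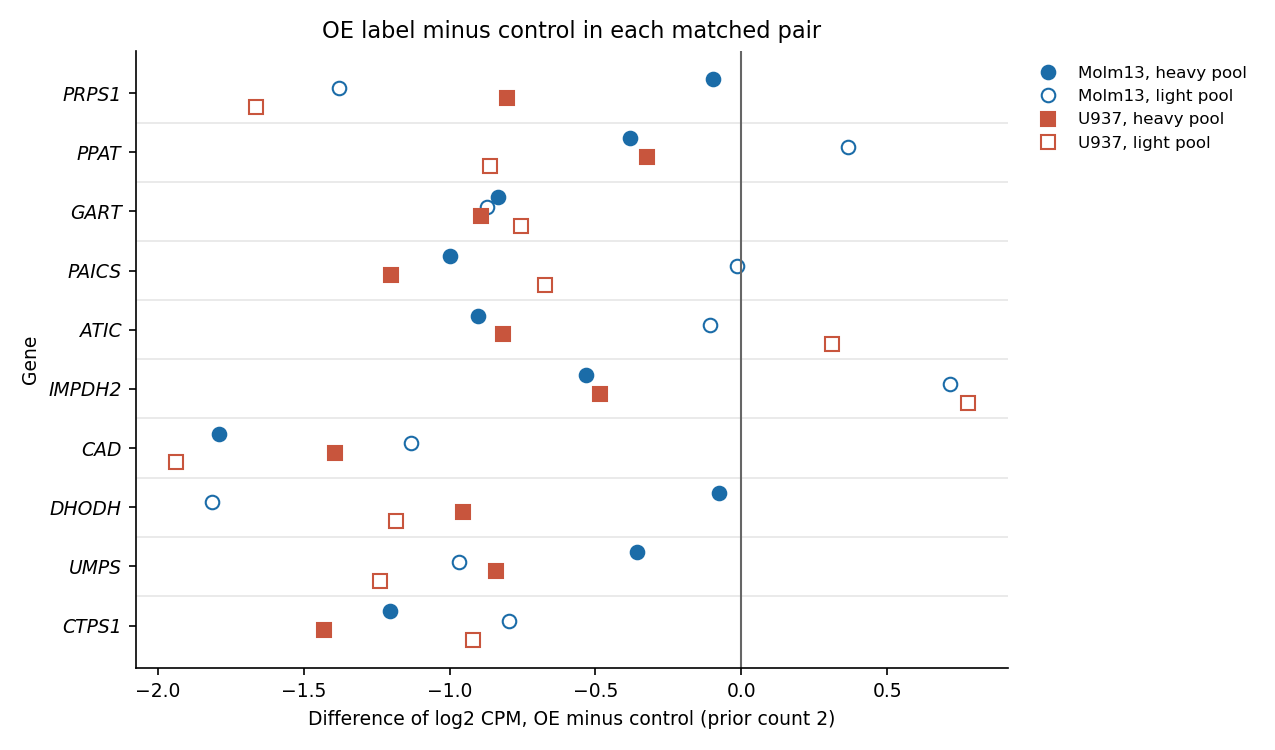
Difference of log2 CPM (prior count 2), OE label minus control, for each enzyme in the 4 matched pairs of line and pool; each point is 1 pair and the vertical line marks no difference. GART, CAD, CTPS1, UMPS, PRPS1, DHODH and PAICS lie left of the line in 4 of 4 pairs (14.4% of all genes do). Both IMPDH2 light pairs lie right of it, at 0.72 and 0.78.

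Taken by pair, 7 of 10 members were lower with the OE label in 4 of 4 matched pairs (14.4% of all genes). The medians of the 10 enzymes within a line, averaged over the pools, were -0.70 in Molm13 and -0.99 in U937. In each line 9 of 10 members were lower (56.0% of all genes in Molm13 and 51.0% in U937). With 1 library per group and line these are values with no test, and the difference between the lines was not tested. In these bulk pools fewer cells of a type and less RNA per cell cannot be told apart, and each library is scaled to its own total.

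Within single pools edgeR's test called none of the 10 enzymes. For the heavy pool edgeR called 0 members (0.00412% of genes in either direction), and 5 were lower at an unadjusted p under 0.05 (6.72% of genes): CAD, CTPS1, PAICS, ATIC and GART. DESeq2 called 2 lower in that pool (2.02% of the genes it tested), and limma voom called 0. All 10 members had both OE heavy libraries below both control heavy libraries (24.3% of all genes did so), and the median of the 10 was -0.73. For the light pool edgeR called 0 members (0% of genes), 6 were lower at an unadjusted p under 0.05 (9.65% of genes), DESeq2 called 4 (3.72% of the genes it tested) and limma voom 0. The 6 members PRPS1, GART, CAD, DHODH, UMPS and CTPS1 had both OE light libraries below both control light libraries (23.2% of all genes). Without Molm13 control light, the library that stood apart in mitochondrial mRNA, edgeR called 7 members lower over both pools, 3 in the light pool and 3 in the heavy pool; of all genes tested in the same fits it called 1583, 293 and 679 lower (5.96%, 1.10% and 2.56%). Without U937 control light it called 5, 2 and 3 members, and 1665, 1644 and 666 of all genes (6.20%, 6.12% and 2.48%). With all 8 libraries the counts of all genes called lower were 574, 0 and 1.

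**Figure D3:**
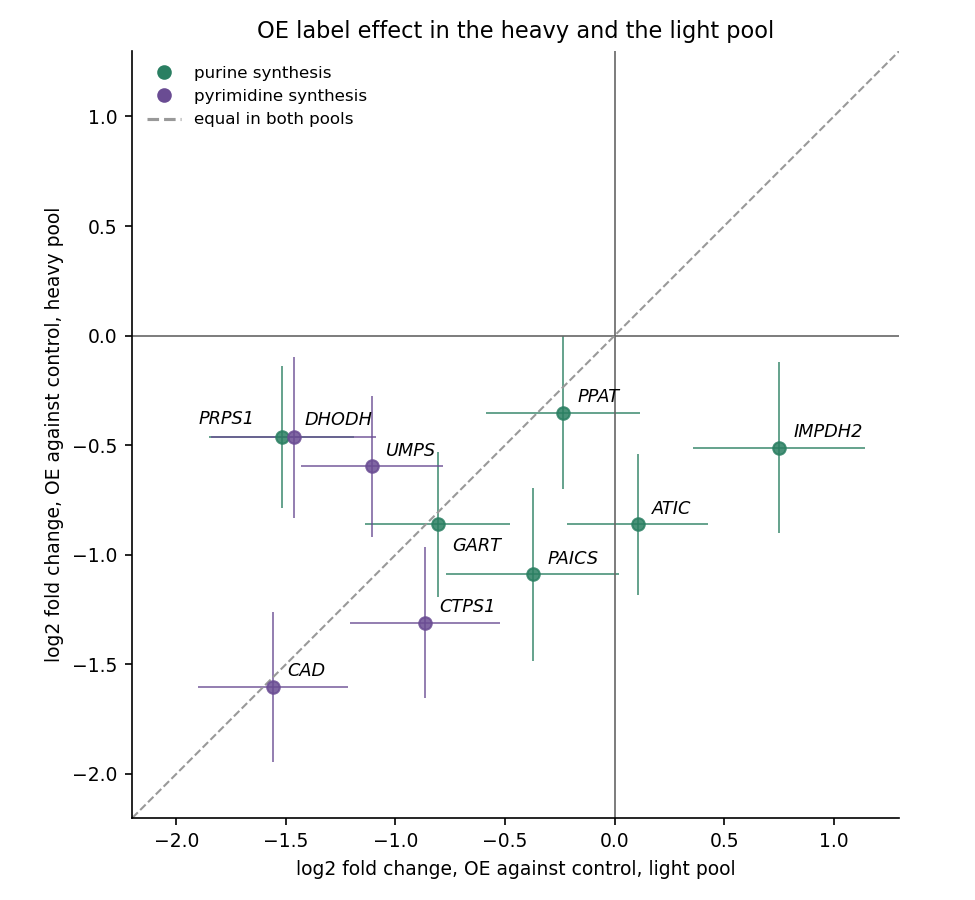
Log2 fold change of OE against control in the light pool (horizontal) and the heavy pool (vertical) for the 10 enzymes, with bars of 1 SE on each axis; the dashed line marks equal values. CAD, PPAT and GART lie close to the line, PRPS1, DHODH and UMPS above it, and IMPDH2, ATIC and PAICS below it, with IMPDH2 at 0.75 and -0.51.

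The difference between those fold changes, heavy minus light, asks whether the share of an mRNA on heavy polysomes changed with the genotype label. No member passed this test in edgeR, DESeq2 or limma voom (0% of genes in edgeR, 0.0165% in DESeq2), and 2 members had an unadjusted p under 0.05 (5.89% of genes). PRPS1 stood at 1.06 (SE 0.46, adjusted p = 0.791 by edgeR), where a positive value means more on the heavy side with the OE label. IMPDH2 stood at -1.26 (SE 0.55, adjusted p = 0.791 by edgeR). DHODH stood at 1.00 (SE 0.52) and UMPS at 0.51 (SE 0.45), while ATIC stood at -0.97 (SE 0.45) and PAICS at -0.71 (SE 0.55). CAD and GART were near no change, at -0.04 (SE 0.47) and -0.05 (SE 0.47), and CAD reached 0.31 and GART 0.23 when 1 library was left out. PPAT stood at -0.12 (SE 0.49) and CTPS1 at -0.44 (SE 0.48). Upper-quartile scaling moved the median of all genes for this comparison from 0.08 to -0.09, and the direction of none of the 10 changed with it.

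Across both genotype labels, 5 of the 10 mRNAs were higher in the heavy than in the light pool: DHODH, PRPS1, UMPS, GART and CAD, against 15.8% of all genes. None was called lower (12.8% of genes). DHODH had a log2 difference of 1.35 (SE 0.27, adjusted p = 0.00321), PRPS1 of 1.29 (SE 0.23, adjusted p = 0.00215) and UMPS of 1.12 (SE 0.23, adjusted p = 0.00387). These 3 passed the threshold in each of 14 alternative settings. GART (0.70, SE 0.24, adjusted p = 0.0397) and CAD (0.67, SE 0.24, adjusted p = 0.0498) lay close to it. GART lost its call in 10 of the 14 settings, among them the removal of any 1 library other than U937 control light or U937 OE light. CAD lost its call in 12 settings, among them DESeq2 and the removal of any 1 library other than U937 control light.

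ATIC (0.61, SE 0.23, adjusted p = 0.0598) and CTPS1 (0.36, SE 0.24, adjusted p = 0.289) had positive values that did not pass. The 95% limits of CTPS1 spanned 0 (-0.16 to 0.88), as did those of PPAT (0.06, SE 0.25), PAICS (-0.17, SE 0.28) and IMPDH2 (-0.33, SE 0.28). In 4 of 4 gradients 6 members were higher in the heavy pool (20.9% of all genes): PRPS1, GART, ATIC, CAD, DHODH and UMPS. For ATIC the U937 OE gradient gave only 0.01. The largest single value was that of DHODH in the Molm13 OE gradient, 2.58, beside 0.84, 0.86 and 1.09 in the other gradients. Averaged over the genotype labels, the median of the 10 was 0.77 in Molm13 and 0.46 in U937.

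**Figure D4:**
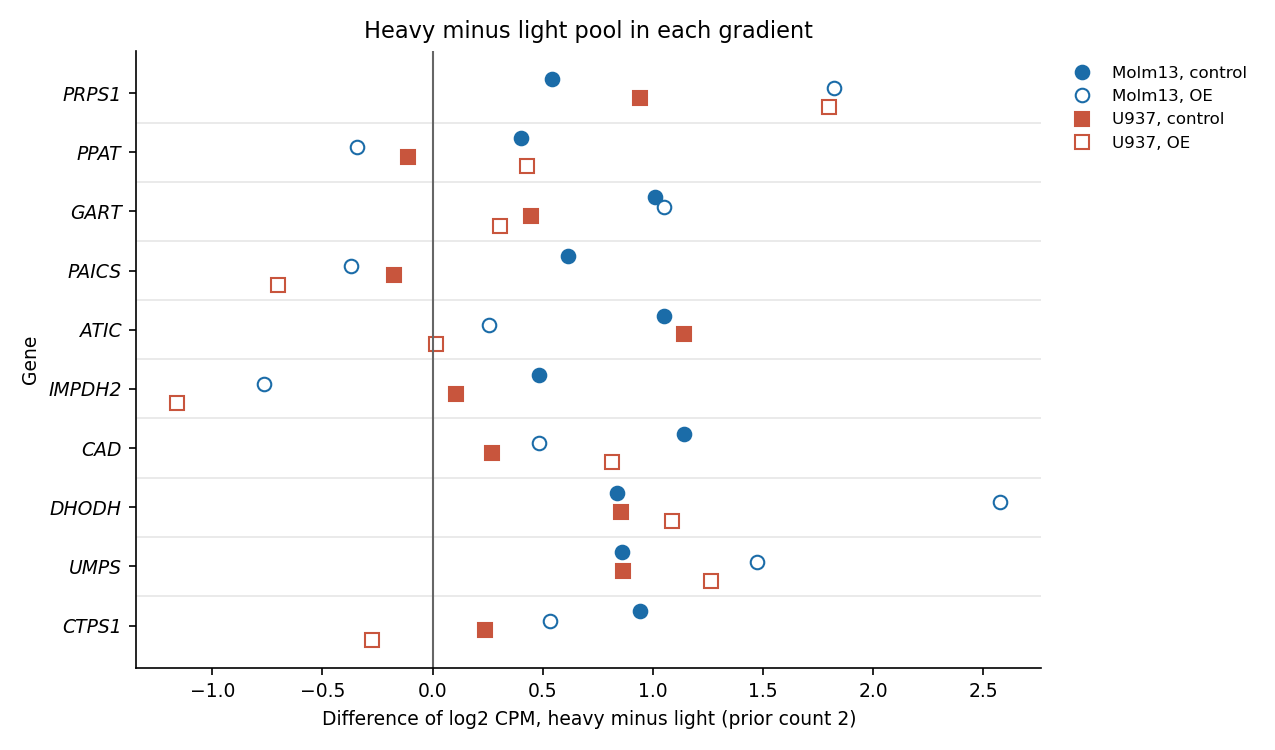
Difference of log2 CPM (prior count 2), heavy minus light pool, for each enzyme in the 4 gradients of line and genotype label; each point is 1 gradient and the vertical line marks equal levels. PRPS1, DHODH and UMPS lie right of the line in every gradient (20.9% of all genes do), and the OE gradients of IMPDH2 lie left of it, at -0.77 and -1.16.

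Over the 10 members Spearman's rho between coding length and heavy minus light was -0.26, a description across genes that share their libraries. CAD has the longest coding sequence, 6675 bases for 2225 residues in GENCODE release 29, and PRPS1 the shortest, 963 bases. The 2 genes had differences of 0.67 and 1.29 in the same direction. In coding genes binned by coding length, the median of heavy minus light was positive in every bin. It was 0.52 up to 750 bases, 0.38 from 750 to 1500, 0.15 from 1500 to 3000 and 0.13 above 3000.

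Between the libraries labelled U937 and Molm13 no enzyme differed by a called amount, and few or no genes of any kind did. In U937 against Molm13 edgeR called 0 members (0% of genes), 0 had an unadjusted p under 0.05, and DESeq2 (1.64% of the genes it tested) and limma voom called 0. The log2 differences ran from -0.25 for PRPS1 (95% limits -0.74 to 0.25) to 0.47 for CTPS1 (95% limits -0.06 to 0.99). In the control light pools PAICS, CAD, PPAT and CTPS1 were higher in U937 by 0.79 to 0.90. The Molm13 values there come from the library that stood apart in mitochondrial mRNA. In the OE light pools of Molm13 and U937, PAICS stood at 166 and 188 CPM and CTPS1 at 9.51 and 16.4 CPM. CAD stood there at 7.45 and 7.38 CPM and PPAT at 22.8 and 17.2 CPM. In the control heavy pools no member differed by more than 0.31.

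Levels of different genes were compared per kilobase of merged exons over the 8 libraries. IMPDH2 was the most abundant at 114 ± 33.5 CPM per kb (SD, n = 8 libraries of all conditions), and its lowest library, 79.6, lay above the highest of PAICS, 39.9. PAICS followed at 26.4 ± 8.99, ATIC at 14.9 ± 5.50 and PRPS1 at 11.9 ± 5.89 CPM per kb, with ranges that overlapped between neighbours in that order. The other 6 lay between 1.83 (CTPS1) and 6.84 CPM per kb (UMPS). The order of the first 4 was the same with the length of the main coding transcript, and that of the other 6 depended on the length used. Exons of GART shared 275 bases (3.55%) with SON on the opposite strand, and those of IMPDH2 and PPAT shared 3.35% and 2.23% with antisense or long non-coding genes. Those reads cannot be assigned, since the library kit does not mark the strand.

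The remaining genes of nucleotide metabolism were read from wider lists over both pools. In the purine ring list PFAS, the amidotransferase that acts between the steps of GART, fell by 1.20 in log2 units (SE 0.28, adjusted p = 0.0351). Light pools of Molm13 and U937 held 8.05 and 16.4 CPM of it in control and 7.70 and 6.29 CPM with the OE label. Heavy pools held 22.7 and 15.4 CPM for control and 6.25 and 6.27 CPM for OE. The other 4 further genes of that list did not pass, among them PRPS2 (-0.38), PRPSAP2 (0.30) and ADSL (-0.24). Of all genes 2.36% were called lower. CTPS2, the other cytidine triphosphate synthase, stood at -0.56 (SE 0.26, adjusted p = 0.234).

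In the branches from inosine monophosphate to AMP and GMP, 1 of 6 further genes passed. Of all genes 2.01% were called higher and 2.36% lower. ADSS1, an adenylosuccinate synthase known mainly from muscle, rose by 2.38 (SE 0.55, adjusted p = 0.0343). Control light libraries had 11.5 and 0.728 CPM, beside 8.59 and 9.39 CPM in the OE light pools, 3.68 and 1.07 CPM in the control heavy pools and 21.7 and 21.9 CPM in the OE heavy pools. The Molm13 light pair alone was lower with the OE label. IMPDH1, the other isoform of the guanine branch, was at -0.39 (SE 0.24, adjusted p = 0.363), and GMPS, the next enzyme after IMPDH2, at -0.40 (SE 0.25, adjusted p = 0.378).

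Of 13 nucleotide kinases, 1 was lower (2.36% of all genes) and 1 higher (2.01% of all genes), with a median of 0.19. Between the pools, 3 of the 13 were lower in the heavy pool (12.8% of all genes) and 3 higher (15.8% of all genes). The mitochondrial adenylate kinase AK4 rose by 1.90 (SE 0.27, adjusted p = 0.00982), from 6.26 to 16.2 CPM in the control libraries to 27.3 to 45.5 CPM in those labelled OE, without overlap. NME1, a nucleoside diphosphate kinase, fell by 1.41 (SE 0.33, adjusted p = 0.0358). Its levels spread from 59.3 to 869 CPM, and how reads shared with its neighbour NME2 were counted is not given in the sources used here. Of 10 genes of deoxynucleotide supply none passed in edgeR, and 7 were negative (53.3% of all genes), with a median of -0.56. At an unadjusted p under 0.05 by edgeR, 5 were lower (12.2% of all genes). Thymidylate synthase TYMS stood at -1.01 (SE 0.27, adjusted p = 0.0561), the dUTPase DUT at -1.08 (SE 0.30, adjusted p = 0.0593) and the thymidylate kinase DTYMK at -1.03 (SE 0.31, adjusted p = 0.0734).

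Salvage enzymes, which rebuild nucleotides from free bases and nucleosides, had a median of -0.28 over both pools. Of the 13, 1 passed: the uridine-cytidine kinase UCK1 rose by 1.07 (SE 0.25, adjusted p = 0.0343 by edgeR), beside 2.01% of all genes called higher. HPRT1, which salvages hypoxanthine and guanine, stood at -0.94 (SE 0.25, adjusted p = 0.0515), and UPP1, a uridine phosphorylase, at 1.501 (SE 0.44, adjusted p = 0.0688). Between the pools, 7 of 13 salvage genes were higher in the heavy pool (15.8% of all genes), among them TK1 (2.05, SE 0.37), APRT (1.34, SE 0.35) and HPRT1 (1.12, SE 0.25). The change of heavy minus light with the OE label was positive for 13 of 13 salvage genes (53.9% of all genes), and none of the 13 passed. It was negative for 7 of 10 synthesis enzymes (46.1% of all genes), with a median of -0.08. Among these 7, CAD (-0.04), GART (-0.05) and PPAT (-0.12) were near 0 and changed sign in 5, 4 and 2 of 14 alternative settings. In coding genes binned by coding length, the median change was 0.59 up to 750 bases and 0.34 from 750 to 1500. It was -0.05 from 1500 to 3000 bases and -0.26 above 3000. The part of length in the values of the 2 lists was not tested. Of 14 tested genes of nucleotide breakdown, among 18 listed, none passed in edgeR over both pools, and the median was -0.04. At an unadjusted p under 0.05 by edgeR there were 5, all lower except UPB1 (12.2% of all genes were lower at that p).

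**Figure D5:**
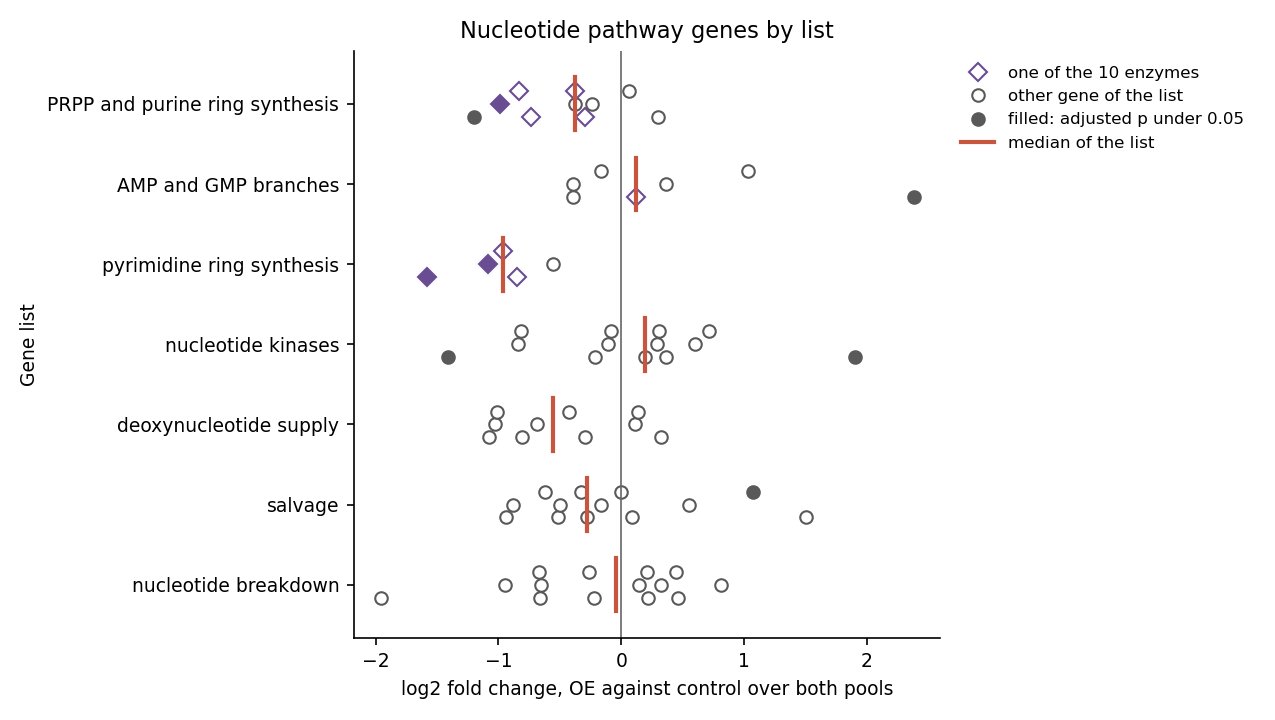
Log2 fold change of OE against control over both pools for genes of 7 nucleotide pathway lists; diamonds are the 10 synthesis enzymes, circles the other genes, filled marks have an adjusted p under 0.05 and bars give the list median. All 5 genes of pyrimidine ring synthesis lie left of 0 (53.3% of all genes do), from -1.58 to -0.56. The AMP and GMP branches and the kinases spread to both sides.

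The 10 enzymes did not all follow 1 profile over the 8 libraries. Pearson's r between a gene's log2 CPM and the mean of the other 9 was highest for GART (0.98) and CAD (0.93) and lowest for PPAT (0.53) and IMPDH2 (-0.35), as a description over 8 libraries. Genes closest to the mean profile of the 10, among 8357 with a symbol and at least 10 CPM, were CLUH (r = 0.995), MCM3 (0.991), PSMB4 (0.989), TSR1 (0.987) and NAP1L4 (0.987). In all 315 of the 8357 genes (3.77%) exceeded 0.9.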

How the data were processed

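The values the authors deposited are raw read counts for each Ensembl gene ID, in 1 column per library. cutadapt, STAR and featureCounts were run with GRCh38, per the submitters' processing notes; versions, annotation and strandedness: not given in the sources used here. Per the labels' protocols the libraries came from a Smart-seq kit, whose reads are not marked by strand. Symbols came from tables keyed by gene ID (42179 of 78932 matched), positions and lengths from GENCODE release 29, and promoter windows from RefSeq on GRCh38.p14, which held none for IMPDH2.

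Counts were tested with edgeR 4.0.16 (R 4.3.3) by its quasi-likelihood test, after filterByExpr and TMM scaling, in a model with terms for group and line (3 residual degrees of freedom, biological coefficient of variation 0.359). Benjamini-Hochberg adjustment ran over all tested genes, at a threshold of 0.05, and standard errors were derived from the F statistic. The line pairs the libraries by design. CPM and log2 CPM (prior count 2) were computed here. Alternatives were DESeq2 1.42.0, limma voom (limma 3.58.1), upper-quartile scaling, no low-count filter, no line term, each gradient summed, the gradient as a random block, and leaving out each library. The edgeR test over both pools was tried on simulated counts, drawn independently for each library with no line effect and no shared gradient. Named by rule were OGFOD1, the 10 members, up to 4 genes of smallest p per wider list, and the 5 genes most like the members' mean profile. The members and lists were chosen with earlier results of these data known.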

Additional observations from a re-analysis of the deposited data

Results flagged for a closer look

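For IMPDH2 the OE label went with lower values in both heavy pairs and higher values in both light pairs, under both line labels. The share of all genes with that pattern is not given here. The OE minus control difference of log2 CPM was -0.53 in Molm13 and -0.49 in U937 in the heavy pool, and 0.72 and 0.78 in the light pool. Averaged over the lines, the heavy difference minus the light difference was -1.26 (-1.2552). The edgeR test of that difference gave -1.26 with an SE of 0.55 and an adjusted p of 0.791, so it failed the correction over all genes. Over 14 alternative settings the value ran from -1.51 to -1.10 and the adjusted p from 0.176 to 1. No group had enough libraries for an outlier test.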

How the results depend on the processing

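Each group held 2 libraries, 1 per line label. Over both pools the count of enzymes called lower with the OE label (3) was 7 with DESeq2, 6 with no low-count filter, 5 with limma voom, 7 with gradient added to it as a random block, 1 with no line term (no replicate block) and 0 with each gradient summed, and 0 to 7 with 1 library left out. Of all genes, 574 were called lower as reported, and under those settings 1437, 1267, 638, 1692, 71 and 0 in that order, and 6 to 1665 with 1 library left out. In the heavy pool it (0) was 2 with DESeq2, 2 with no filter and 0 to 3 with 1 library left out; in the light pool (0) it was 4, 3 and 0 to 3. Of all genes, DESeq2 called 406 lower in the heavy pool and 623 in the light pool, and the fit with no filter 425 and 327. The count higher in the heavy than the light pool (5) was 3 with upper-quartile scaling, no filter, no line term or the random block, and 3 to 5 with 1 library left out, while 3833 of all genes became 2846, 3818, 3003 and 3273 under those settings, and 2165 to 5368 with 1 left out. The cause was not tested. Upper-quartile scaling moved the median of all genes from -0.05 to 0.11 for OE in the light pool, from 0.08 to -0.09 for the heavy minus light change and from -0.04 to -0.22 for heavy against light; with no filter the last was -0.19.

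Values near 0 changed sign. For OE against control, with 1 library left out, DHODH in the heavy pool ran from -1.05 to 0.0086, and in the light pool PPAT from -0.72 to 0.19, PAICS from -0.75 to 0.0434 and ATIC from -0.0712 to 0.26. The heavy minus light change ran from -0.39 to 0.31 for CAD (0.0085 with no line term), -0.55 to 0.36 for PPAT and -0.35 to 0.23 for GART. Heavy against light ran from -0.12 to 0.33 for PPAT (-0.12 with upper-quartile scaling) and -0.34 to 0.0527 for PAICS. For U937 against Molm13 the ranges were -0.22 to 0.27 for DHODH, -0.0222 to 0.14 for UMPS, -0.0224 to 0.22 for GART and -0.0228 to 0.12 for ATIC. DHODH was -0.0412 with upper-quartile scaling, -0.0313 with limma voom and -0.0238 with the random block, UMPS was -0.00310 with upper-quartile scaling, and PRPS1 was 0.0587 with gradients summed. Gene length by coding transcript was an alternative chosen after seeing the data.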
